A study of Mus musculus with 6 samples.

Results

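Spryd3 and 7 genes beside it on mouse chromosome 15 (Tns2, Igfbp6, Soat2, Csad, Zfp740, Itgb7 and Rarg) were followed in the dorsal striatum, 8 of the 34745 genes in the deposited table. Spryd3 was picked because its level was higher in Ash1l heterozygous (Ash1l het) mice in these same libraries. The other 7 were picked by their place in the table's locus column, to ask whether Spryd3 alone was higher. Of the 8, 6 passed the filter on low counts, and Soat2 and Itgb7 did not.

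The dorsal striatum was taken from C57BL/6 mice aged 1 year, 3 of them Ash1l het and 3 wild type (WT), and RNA was read with a stranded mRNA kit. The sources used here do not say how the Ash1l allele was made or whether the libraries of a group came from separate animals. The p-values therefore describe only the spread among these libraries, which may be technical. CPM is a count scaled to library size, here with TMM factors, which correct for library composition. The protocol in the labels speaks of males, but Xist stood at 1956 to 2957 CPM in all 6 libraries, and 4 Y-linked genes had 1 count in all, so the sex on the label is not used here. On the first principal component Ash1l het replicates 1 and 2 lay apart, at -16.8 and -29.9, where the remaining libraries lay between 4.36 and 18.9. Library totals ran from 12080663 to 18798694 counts. Each fold change sets Ash1l het over WT on the log2 scale and carries the standard error (SE) of the fit.

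Ash1l encodes a histone methyltransferase that acts on lysine 36 of histone H3, and it lies on chromosome 3, away from the genes described here. Spryd3 encodes a protein with a SPRY domain, a fold through which many otherwise unrelated proteins bind their partners, and its own function is little described. Its neighbours have unrelated roles. Tns2 encodes tensin 2, an adaptor between integrins and actin. Igfbp6 encodes a secreted protein that binds insulin-like growth factor 2, and Soat2 an enzyme that esterifies cholesterol. Csad encodes the decarboxylase that makes hypotaurine, the precursor of taurine, Zfp740 a zinc finger protein, Itgb7 the integrin beta 7 chain of lymphocytes, and Rarg a nuclear receptor for retinoic acid.

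On GRCm38, Spryd3 (ENSMUSG00000036966) runs from 102116528 to 102136234 on the minus strand, by the deposited table's locus and GENCODE M21. GENCODE gives it 1 protein-coding transcript, with 11 exons, and no other annotated gene overlaps it on either strand. Tns2 (ENSMUSG00000037003, 102102988 to 102116401, plus strand) ends 126 bases from the end of Spryd3, so the genes meet tail to tail. On the other side Igfbp6 (ENSMUSG00000023046, 102144362 to 102149511, plus strand) begins 8127 bases from the start of Spryd3 and points away from it. Then follow Soat2 (ENSMUSG00000023045, 102150526 to 102163474, plus strand), Csad (ENSMUSG00000023044, 102176998 to 102189043, minus strand), Zfp740 (ENSMUSG00000046897, 102203648 to 102215606, plus strand), Itgb7 (ENSMUSG00000001281, 102215995 to 102231935, minus strand) and Rarg (ENSMUSG00000001288, 102234938 to 102257517, minus strand). Rarg, the farthest of the 7, lies 98.7 kb from Spryd3. In GENCODE, though not in the table's loci, Csad and Zfp740 overlap on opposite strands. The sources used here do not say whether the authors' counting used strand, so reads of that pair may not be fully told apart.

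The promoters of Spryd3 and of the genes on either side of it are shown because these start regions lie within a short stretch of chromosome and differ in composition. Each is the RefSeq window of 300 bases on GRCm38.p6, from 250 before to 50 after the start, written 5′ to 3′ on the gene's own strand, with every CpG dinucleotide in capitals. Of the 8 genes, 7 had an entry. The windows are chr15:102136166-102136465 (minus) for Spryd3, chr15:102102684-102102983 (plus) for Tns2 and chr15:102143936-102144235 (plus) for Igfbp6. The RefSeq starts differ from those given above. The Igfbp6 window ends before the locus start of 102144362, and the Tns2 window before that of 102102988. GENCODE begins Tns2 at 102100413, upstream of the window shown.
Spryd3: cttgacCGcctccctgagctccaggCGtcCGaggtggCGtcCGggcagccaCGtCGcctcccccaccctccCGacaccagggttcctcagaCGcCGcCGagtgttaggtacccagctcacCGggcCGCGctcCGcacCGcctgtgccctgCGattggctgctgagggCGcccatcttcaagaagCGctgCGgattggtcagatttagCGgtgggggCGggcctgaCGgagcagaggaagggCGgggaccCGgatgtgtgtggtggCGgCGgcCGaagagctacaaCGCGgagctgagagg
Tns2: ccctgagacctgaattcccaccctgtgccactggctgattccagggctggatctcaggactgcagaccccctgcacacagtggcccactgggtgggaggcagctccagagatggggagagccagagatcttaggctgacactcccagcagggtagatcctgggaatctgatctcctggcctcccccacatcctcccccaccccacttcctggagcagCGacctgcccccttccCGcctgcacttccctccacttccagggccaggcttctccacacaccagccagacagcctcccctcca
Igfbp6: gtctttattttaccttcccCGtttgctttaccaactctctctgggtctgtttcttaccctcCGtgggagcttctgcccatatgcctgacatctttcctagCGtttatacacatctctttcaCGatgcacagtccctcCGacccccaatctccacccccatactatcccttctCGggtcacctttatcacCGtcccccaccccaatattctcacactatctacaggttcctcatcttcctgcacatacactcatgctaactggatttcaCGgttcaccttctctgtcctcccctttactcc
The Spryd3 window held 30 CpGs and 69.3% G or C, where the median of 32851 promoter windows in the same table was 7 CpGs. More CpGs were found in 10.6% of all windows. The Tns2 window held 2 CpGs and the Igfbp6 window 8. Among the neighbours the upstream window of Zfp740 held most, at 54. Searched on both strands, the Spryd3 window held GGGCGG, which 35.7% of all windows hold, and CCAAT, which 37.4% hold. It did not hold TATAAA (13.6% of windows), CACGTG (7.15%) or TGACGTCA (1.79%). The Tns2 window held none of these 5 motifs, and the Igfbp6 window held CCAAT and TATAAA. Such matches describe the letters only.

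Spryd3 was the member with the higher level in Ash1l het. It stood at 37.6, 41.5 and 44.1 CPM in WT replicates 1, 2 and 3 and at 60.9, 96.7 and 92.3 CPM in Ash1l het replicates 1, 2 and 3, from 1910 and 4059 counts in all. All 3 Ash1l het libraries were above all 3 WT libraries. Against the WT mean the Ash1l het libraries were 1.48, 2.35 and 2.25 times as high, so replicate 1 lay apart from replicates 2 and 3. The means were 41.1 ± 3.29 CPM for WT and 83.3 ± 19.5 CPM for Ash1l het (SD, n = 3 each). The log2 fold change was 1.02 (SE 0.17), or 2.03-fold with a 95% interval of 1.55 to 2.66. These values chose the gene and are a description. Over all 15267 tested genes its edgeR quasi-likelihood adjusted p was 0.299, above the threshold of 0.05. Leaving out Ash1l het replicate 1, the lowest of the 3 for Spryd3, moved the log2 fold change to 1.20 (SE 0.11) and the adjusted p to 0.0107 by the same edgeR test. With any other single library left out, the adjusted p by that test ran from 0.202 to 0.999. Leaving out replicates 1 and 2, which lay apart, gave 1.17 (SE 0.11). DESeq2, which called 0.255% of all tested genes, and the exact test of edgeR, which called 0.269%, put its adjusted p at 0.000208 and 0.000621. By limma-voom the adjusted p of Spryd3 was 0.624. In size, 3 of the 586 tested genes on chromosome 15 had a higher log2 fold change than Spryd3. They were Angpt1, 2.83-fold, Osmr, 2.50-fold, and Maff, 2.15-fold, named after their values were seen, and the edgeR test called 0 of the 3.

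**Figure D1:**
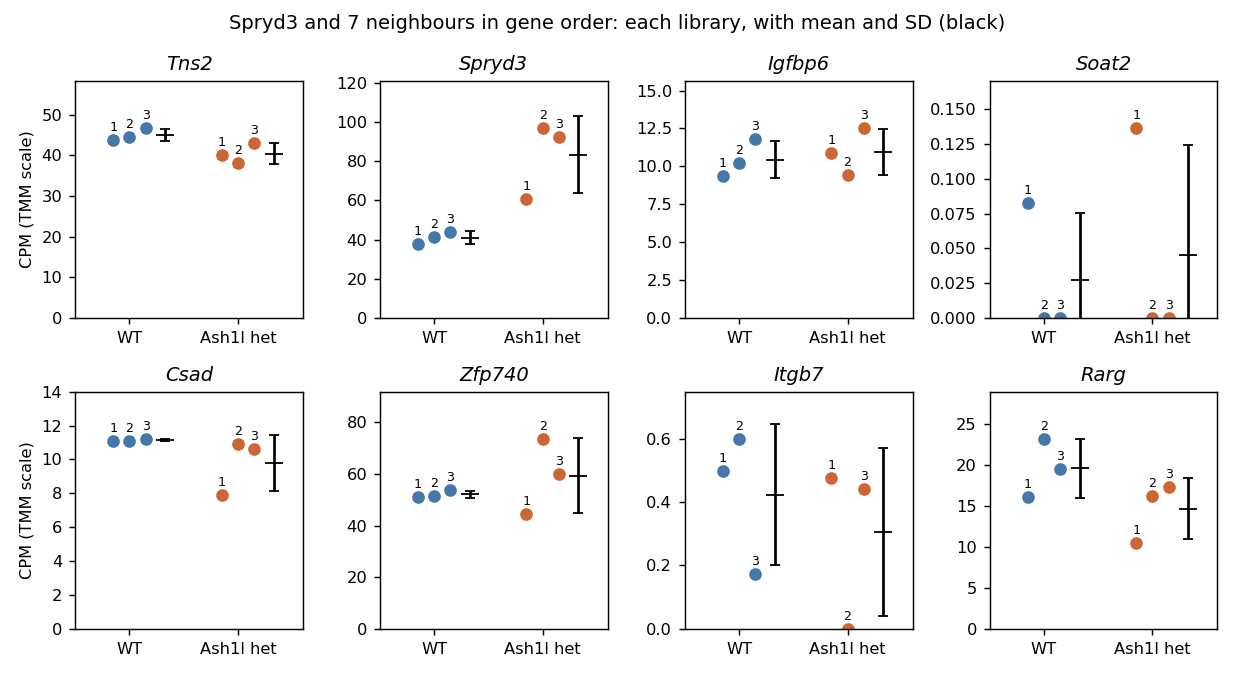
Level of each gene in every library, in CPM on the TMM scale (y axis, from 0, a different range in each panel), in WT (blue) and Ash1l het (orange), with the replicate number above each point and the mean and SD in black. Spryd3 shows 3 Ash1l het libraries, at 60.9 to 96.7 CPM, above the 3 WT libraries, at 37.6 to 44.1 CPM; the Ash1l het points lie below the WT points for Tns2 and Csad, overlap them for Igfbp6, Zfp740 and Rarg, and rest on a few counts for Soat2 and Itgb7.

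None of the 5 tested neighbours was called higher or lower. By edgeR's quasi-likelihood test 0 of the 5 were called, where 0.0131% of all tested genes were (2 of 15267, Usp46 and Bend6), and 0 of the 5 had an unadjusted p under 0.05, where 5.78% of all tested genes did. The exact test of edgeR, DESeq2 and limma-voom also called 0 of the 5. Their log2 fold changes ran from -0.42 to 0.19, with 2 above 0 and 3 below. The upper end of each one's 95% interval lay under the Spryd3 estimate of 1.02. That estimate chose the gene, so the comparison is a description. The Spryd3 interval began at 0.63 (log2), and the highest upper end among the 5 was 0.56, for Zfp740.

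Tns2, whose end nearly touches that of Spryd3, stood at 43.8, 44.4 and 46.6 CPM in WT and at 40.0, 38.2 and 43.1 CPM in Ash1l het. Every Ash1l het library lay just under every WT library. Groups that do not overlap, with Ash1l het lower, were found in 5.53% of all tested genes. Its edgeR estimate was -0.15 (SE 0.10, adjusted p = 0.893), or 0.901-fold with a 95% interval of 0.768 to 1.06. So in WT Tns2 and Spryd3 had nearly equal CPM, while in Ash1l het Spryd3 had more than Tns2 in each library.

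Igfbp6, the neighbour whose start faces that of Spryd3, stood at 9.36, 10.2 and 11.8 CPM in WT and at 10.9, 9.45 and 12.5 CPM in Ash1l het. The groups overlapped. The edgeR estimate on the log2 scale was 0.07 (SE 0.17, adjusted p = 0.969), with a 95% interval from 0.807-fold to 1.36-fold. Soat2, the next gene along, had 1 count in WT replicate 1, 2 counts in Ash1l het replicate 1 and 0 counts in the other 4 libraries. A count of 0 allows up to 3 counts, or 0.165 to 0.248 CPM depending on the library, and no difference in Soat2 was detectable at this depth.

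Csad stood at 11.1, 11.1 and 11.2 CPM in WT and at 7.89, 10.9 and 10.6 CPM in Ash1l het. The Ash1l het libraries lay under the narrow WT range, replicates 2 and 3 by little. The edgeR estimate on the log2 scale was -0.19 (SE 0.17, adjusted p = 0.907), with a 95% interval from 0.679-fold to 1.14-fold. Zfp740 stood at 51.2, 51.4 and 53.6 CPM in WT and at 44.4, 73.4 and 59.9 CPM in Ash1l het, whose libraries lay on both sides of WT. For Zfp740 the edgeR estimate was 0.19 (SE 0.17, adjusted p = 0.907), with a 95% interval from 0.879-fold to 1.48-fold.

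Itgb7 had 6, 10 and 3 counts in WT and 7, 0 and 8 counts in Ash1l het, too few for the test. Cd3d, a defining marker of T lymphocytes, had 0 counts in every library. Rarg stood at 16.0, 23.1 and 19.5 CPM in WT and at 10.4, 16.2 and 17.3 CPM in Ash1l het. The groups overlapped between WT replicate 1 and Ash1l het replicates 2 and 3. Rarg had the largest shift among the 5 tested neighbours, below WT, at -0.42 (SE 0.21, edgeR adjusted p = 0.878), and the 95% interval ran from 0.537-fold to 1.04-fold.

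Levels were compared between genes per length. On the authors' FPKM scale Spryd3 had the highest WT level of the 8 genes, at 11.4 ± 0.895, followed by Igfbp6 at 9.24 ± 1.12, Tns2 at 8.18 ± 0.347, Csad at 4.84 ± 0.125, Rarg at 3.41 ± 0.559 and Zfp740 at 3.05 ± 0.116 FPKM (SD, n = 3 each). Itgb7, at 0.149 ± 0.0765 FPKM, and Soat2, at 0.0104 ± 0.0180 FPKM, came last. Igfbp6 and Tns2 lay within their spread of each other, as did Rarg and Zfp740. The length behind the authors' FPKM of Zfp740, 16805 bases, is longer than the gene's own span of 11959 bases in the table. Per kb of GENCODE exons (5091 bases for Zfp740) the WT level of Zfp740 was 10.2 ± 0.268 CPM per kb, second to Spryd3 at 14.0 ± 1.12 CPM per kb. The order of Csad and Rarg also turned on this scale, with Csad at 2.90 ± 0.0239 and Rarg at 4.59 ± 0.840 CPM per kb, since the length behind the authors' FPKM of Csad is 2265 bases and its GENCODE exons cover 3831. In Ash1l het Spryd3 stood at 23.8 ± 5.95 FPKM, and Igfbp6, next on that scale, at 9.92 ± 0.910 FPKM. Per kb of exons Spryd3 stood at 28.5 ± 6.67 CPM per kb in Ash1l het, and the next was Zfp740 at 11.6 ± 2.85, with Igfbp6 at 9.83 ± 1.36 CPM per kb.

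To set the neighbours beside Spryd3 within each library, the log2 ratio of Spryd3 CPM to the summed CPM of the 7 neighbours was taken. It was -1.81, -1.76 and -1.70 in WT and -0.91, -0.62 and -0.64 in Ash1l het. The sum itself had a mean of 139 ± 5.77 CPM for WT and of 135 ± 18.5 CPM for Ash1l het (SD, n = 3 each). So the ratio differed by 1.04 (log2) while the means of the neighbours' sum differed by less than the spread among the Ash1l het libraries. With all 45 other genes listed within 500 kb as the reference, whose sum was 898 ± 11.6 CPM for WT and 909 ± 8.94 CPM for Ash1l het, the ratio differed by 0.98. Ratios to single neighbours differed between the groups by 0.84 (Zfp740) to 1.43 (Rarg). These ratios carry the Spryd3 contrast that chose the gene and are a description.

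**Figure D2:**
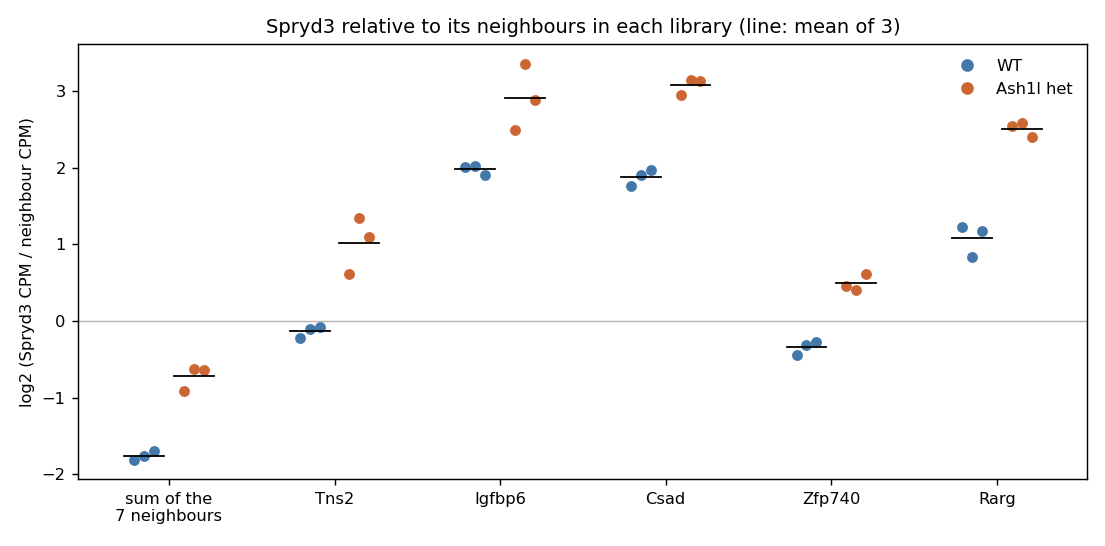
Log2 ratio of Spryd3 CPM to the CPM of each tested neighbour, and to the sum of the 7 neighbours (y axis), in each WT (blue) and Ash1l het (orange) library, with the mean of 3 as a line. In all 6 columns the Ash1l het points lie above the WT points, and against Zfp740 and Rarg the 3 Ash1l het points lie close together.

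Some neighbours had the same lowest Ash1l het library as Spryd3, and the share of all tested genes that did was not counted. On the log2 CPM scale the SD of Spryd3 was 0.37 in Ash1l het and 0.12 in WT. Ash1l het replicate 1, the lowest of the 3 for Spryd3, was also the lowest for Csad, Zfp740 and Rarg. For Tns2 and Igfbp6 the lowest was Ash1l het replicate 2. Taken as ratios to Zfp740, to Csad and to Rarg, the Ash1l het SD of Spryd3 was 0.12, 0.11 and 0.09, and as a ratio to Tns2 and to Igfbp6 it was 0.37 and 0.44. With 3 libraries this is a description. Over the 6 libraries Pearson's r of Spryd3 with its neighbours, on log2(CPM + 0.5), was 0.67 for Zfp740, 0.24 for Igfbp6, -0.19 for Csad, -0.28 for Rarg and -0.69 for Tns2. The points share the genotype difference and library composition.

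Genes farther along the chromosome were then examined. Within 250 kb of Spryd3 there were 22 other genes, of which 13 were tested, 6 higher and 7 lower by sign, with a median log2 fold change of -0.08. Across all tested genes the median was 0.01. The edgeR quasi-likelihood test called 0 of the 13, where it called 0.0131% of all tested genes. An unadjusted p under 0.05 was found for 2 of the 13, where 5.78% of all tested genes had one. Both were lower by sign and had low levels. Espl1, which encodes separase, the protease that frees sister chromatids, stood at 1.90, 1.49 and 1.45 CPM in WT and at 1.09, 0.586 and 0.880 CPM in Ash1l het, an edgeR estimate of -0.91 (SE 0.36, adjusted p = 0.857). Sp7, the transcription factor osterix, known for bone formation, stood at 5.22, 3.05 and 3.94 CPM in WT and at 1.56, 2.54 and 2.47 CPM in Ash1l het, an edgeR estimate of -0.87 (SE 0.30, adjusted p = 0.857).

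Other tested genes within 250 kb had smaller differences. Eif4b, a translation initiation factor 19.4 kb from Spryd3 beyond Tns2, stood at 213, 213 and 231 CPM in WT and at 239, 245 and 234 CPM in Ash1l het. Its groups did not overlap, as for 6.18% of all tested genes with Ash1l het higher, and the edgeR estimate was 0.13 (SE 0.09, adjusted p = 0.897). The transporter gene Mfsd5 was at -0.30 (SE 0.17) and Pfdn5, a prefoldin subunit, at 0.22 (SE 0.16). Aaas, which encodes the nuclear pore protein aladin, was at 0.13 (SE 0.19), Myg1 at -0.08 (SE 0.13) and the keratin gene Krt77 at 0.01 (SE 0.28). Among the 13 tested genes the groups did not overlap for 1 gene higher in Ash1l het, Eif4b, and for 4 lower, Tns2, Csad, Espl1 and Sp7, where over all tested genes the shares were 6.18% higher and 5.53% lower.

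Within 500 kb, 22 of 45 other genes were tested, 11 higher and 11 lower by sign, and 14 of the 45 had no count in any library. Within 1 Mb, 30 of 82 were tested, 12 higher and 18 lower by sign, with a median of -0.03. The edgeR quasi-likelihood test called 0 in either window, and the 2 with an unadjusted p under 0.05 were Espl1 and Sp7 in both. Over all tested genes the shares were 0.0131% called and 5.78% with an unadjusted p under 0.05. Within 500 kb, the exact test of edgeR and DESeq2 called 0 as well, where they called 0.269% and 0.255% of all tested genes. The highest log2 fold change of the 30 was that of the pseudogene Rpl39-ps, at 0.52, which rested on Ash1l het replicate 2 (10.7 CPM, against 4.45 to 4.90 CPM in the other 5 libraries) and was singled out after its values were seen. The upper end of the 95% interval lay under the Spryd3 estimate for 27 of the 30, the exceptions being Rpl39-ps and the thinly counted Krt1 and Npff, also named after their values were seen. That estimate chose Spryd3, so the comparison is a description. The Spryd3 interval itself began at 0.63, and further genes had upper ends above that, among them Nr4a1 (0.88) and Sp1 (0.67). The median size of the change, regardless of sign, was 0.19 within 250 kb, 0.19 within 500 kb and 0.14 within 1 Mb, against 0.14 over all tested genes.

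**Figure D3:**
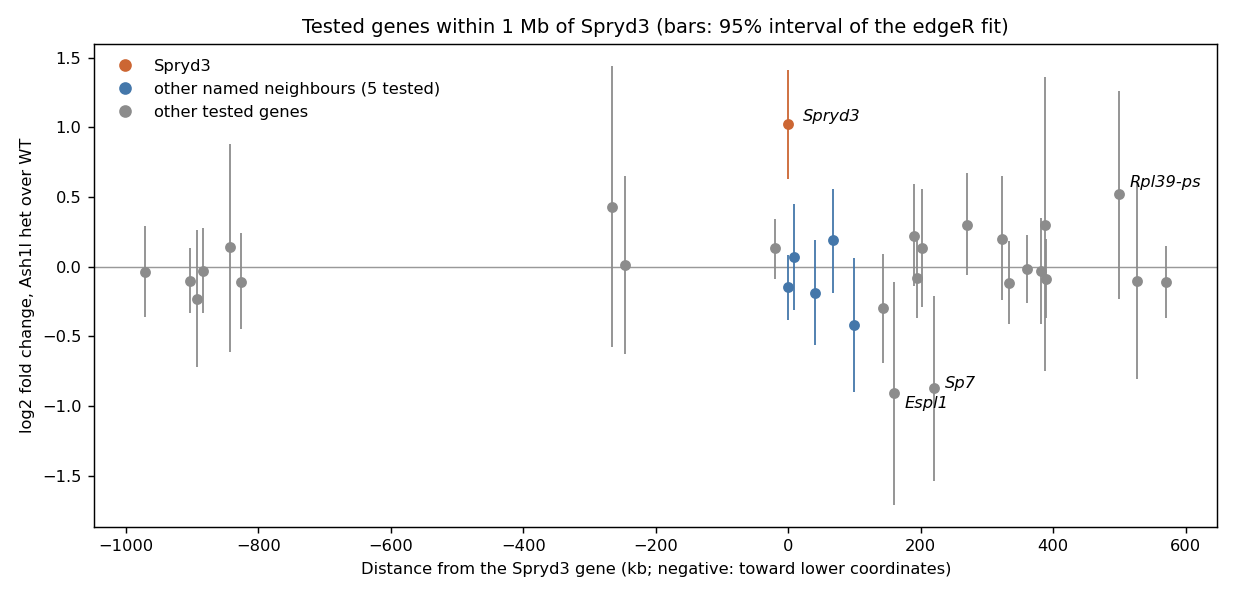
Log2 fold change of Ash1l het over WT with its 95% interval (y axis) for every tested gene within 1 Mb, against the distance in kb from the nearer end of the Spryd3 gene (x axis); orange is Spryd3, blue the 5 tested neighbours and grey the others. Spryd3, at 1.02, stands above the 30 other genes, which lie between -0.91 and 0.52.

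Genes related to the members by function were taken from lists. Of the 7 lists 0 genes passed the edgeR quasi-likelihood test, where 0.0131% of all tested genes did. Of 19 other SPRY domain genes, all tested, 8 were higher and 11 lower by sign, with a median log2 fold change of -0.02. In that list 3 of 19 had an unadjusted p under 0.05, where 5.78% of all tested genes did: Ryr1, Fsd1l and Hnrnpul1, the last named after its values were seen. Ryr1, a calcium release channel, had a WT mean of 125 ± 14.3 CPM and an Ash1l het mean of 80.9 ± 9.67 CPM (SD, n = 3 each), or 0.645-fold (edgeR adjusted p = 0.645). Fsd1l was 2.84-fold by the fit (lower 95% bound 1.15), above the 2.03-fold of Spryd3, but its Ash1l het libraries stood at 34.9, 8.21 and 27.9 CPM against 8.39 ± 1.85 CPM in WT, so replicate 2 lay within the WT range. Hnrnpul1, which encodes an RNA-binding protein, was at -0.24 (SE 0.10).

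Tensin family and partner genes other than Tns2 had 4 of 10 tested higher and 6 lower by sign, with a median of -0.05. The smallest p-values were those of Tln2, a talin, at -0.21 (SE 0.10) and Tns1, at -0.24 (SE 0.13). In the insulin-like growth factor system 5 of 9 tested genes other than Igfbp6 were higher and 4 lower by sign, with a median of 0.0005. Of these 9, 2 had an unadjusted p under 0.05, where 5.78% of all tested genes did. The binding protein genes Igfbp7 and Igfbp2 lay in opposite directions, at 0.54 (SE 0.21) and -0.72 (SE 0.29). Of 5 tested genes of cholesterol ester synthesis and hydrolysis 3 were higher by sign, with a median of 0.21, led by the lysosomal acid lipase gene Lipa at 0.50 (SE 0.15) and the hormone-sensitive lipase gene Lipe at 0.33 (SE 0.14). Lipa and Lipe were the 2 of these 5 with an unadjusted p under 0.05. The tensin and taurine lists had 0. Of 5 tested taurine synthesis and transport genes other than Csad, 1 was higher and 4 lower by sign, all within a range of -0.19 (the transporter gene Slc6a13) to 0.05, and Ado was at -0.06 (SE 0.11).

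Retinoic acid signalling genes other than Rarg had 4 of 14 tested higher and 10 lower by sign, with a median of -0.12 and 0 with an unadjusted p under 0.05. Dhrs3, a retinaldehyde reductase, was at -0.36 (SE 0.18). Of the partners and ligands of integrin beta 7, listed together with the beta 1 chain gene Itgb1, 3 of 6 were tested. Itga4, which encodes the alpha 4 chain that pairs with it, was at 0.35 (SE 0.20) and Itgb1 at 0.09 (SE 0.11). Madcam1, Itgae and Cdh1 were too low for the test.

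Likeness to Spryd3 was measured by Pearson's r of log2(CPM + 0.5) over the 6 libraries, among 7548 genes with a mean of at least 10 CPM and within a factor of 4 of the Spryd3 mean. The 5 most alike were Clic6 (r = 0.974), Hnrnpdl (0.963), Trim26 (0.956), Mbd1 (0.955) and Flot1 (0.953). They are the highest of 7548 on 6 points, which share the genotype difference that chose Spryd3. The r values are therefore a description. None lies on chromosome 15. Their log2 fold changes were smaller, from 0.15 (SE 0.11) for Flot1 to 0.47 (SE 0.14) for Clic6, against 1.02 for Spryd3.

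Other measures differed between the libraries beside the Spryd3 level. Ash1l itself stood at 308, 295 and 293 CPM in WT and at 281, 198 and 253 CPM in Ash1l het. The 10 spiny neuron markers, which define the striatum, ranged in sum from 7809 to 8917 CPM in WT and from 7356 to 9074 CPM in Ash1l het. Of these 10, 2 were higher in Ash1l het by sign. Cortical glutamatergic neuron markers (5 of 5 tested higher by sign) summed to 31.9 to 60.6 CPM in WT and 13.6 to 86.0 CPM in Ash1l het. All 5 blood cell genes were higher by sign, and their sum was 23.0 to 35.4 CPM in WT and 56.1 to 123 CPM in Ash1l het. The 4 globin genes among them summed to 113, 96.8 and 53.5 CPM in Ash1l het replicates 1, 2 and 3. In WT replicates 1, 2 and 3 the sums were 22.9, 33.8 and 21.7 CPM. The globin sum thus separated the same libraries as genotype did, and its part in the Spryd3 difference cannot be told apart from that of genotype. With the globin sum as a covariate, which overlaps with genotype, the Spryd3 estimate was 1.44 (SE 0.40, edgeR adjusted p = 1.00). Without the covariate the SE was 0.17. Endothelial and mural markers (10 of 13 higher by sign) summed to 340 to 423 CPM in WT and 387 to 490 CPM in Ash1l het, oligodendrocyte markers (7 of 7) to 5467 to 6853 and 5609 to 8209 CPM, and astrocyte markers (3 of 6) to 804 to 951 and 766 to 1526 CPM. The part of these cell types in the Spryd3 difference was not tested. In bulk tissue fewer cells of a type and less RNA per cell cannot be told apart.

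The differences were recomputed under 19 alternatives. Spryd3 was higher in Ash1l het under all 19, from 0.90 to 1.44, and the highest value among the 5 tested neighbours was 0.45, for Igfbp6 with the globin covariate. Tns2 and Csad changed sign in 1 of the 19 and Igfbp6 in 2. Zfp740 and Rarg kept their sign, but single libraries moved their values. Without Ash1l het replicate 2 Zfp740 was at 0.0033, and without Ash1l het replicate 1 at 0.36. Rarg was at -0.23 without Ash1l het replicate 1 and at -0.28 without WT replicate 2, against -0.42 with all libraries. Csad was at -0.06 without Ash1l het replicate 1.

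**Figure D4:**
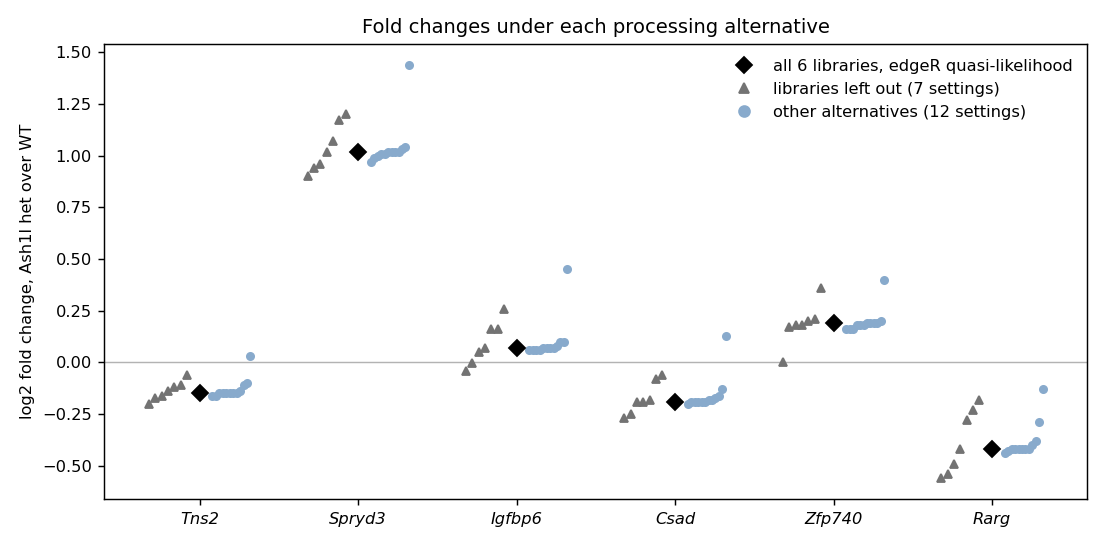
Log2 fold change of Ash1l het over WT (y axis) of the 6 tested genes with all 6 libraries (black diamonds), with libraries left out (grey triangles) and under the other alternatives (blue circles), each set sorted by value. Spryd3 lies between 0.90 and 1.44 throughout, above every value of the 5 neighbours.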

How the data were processed

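The deposited table gives raw read counts per gene and, by the authors, FPKM for the same genes, per the file headers. Counts in the 6 files of single libraries equal those in the table. Named in the submitters' processing notes are HISAT2, StringTie, edgeR, CASAVA, FastQC and the build GRCm38, with no role or setting. Libraries were grouped by title.

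Counts were tested with edgeR 4.0.16 (quasi-likelihood, robust, TMM, default filter with a minimum count of 10, genotype only; R 4.3.3) over 15267 genes, with Benjamini-Hochberg adjustment over all of them and a threshold of 0.05. The steps were tested on simulated data. Intervals are 95% and come from the spread between libraries in that fit, and floors of 3 counts cover counting error only. DESeq2 1.42.0, the exact test of edgeR, limma 3.58.1, other scalings and filters, log2(FPKM + 0.1) and log2(FPKM + 1), a replicate block, a globin covariate and left-out libraries were alternatives. Named genes are the 8 members, tested genes within 250 kb, the 2 smallest p-values of each list, and the 5 genes most like Spryd3. One gene under this rule is not reported here. Members, lists and rules were chosen with earlier results of these data known. Promoters are from RefSeq (GRCm38.p6).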

Additional observations from a re-analysis of the deposited data

How the results depend on the processing

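Genes called within 500 kb of Spryd3 numbered 0 under every alternative run, windows of 250 kb and 1 Mb and a threshold of 0.10 included. Over the whole table the edgeR quasi-likelihood test called 2, against 39 by DESeq2, 41 by the exact test of edgeR, 0 with the globin covariate, which overlaps with genotype, and 50 without Ash1l het replicates 1 and 2, where the lone Ash1l het library is assumed to vary like WT. With libraries left out in turn 1 to 13 genes were called, fewest without replicate 3 of WT and most without replicate 3 of Ash1l het. Spryd3 passed by DESeq2 (log2 fold change 1.01), by the exact test (1.02) and without Ash1l het replicate 1. It did not pass with all libraries by edgeR's quasi-likelihood test, by limma-voom, or with any other single library left out. Without Ash1l het replicates 1 and 2 its log2 fold change was 1.17. That fit holds a lone Ash1l het library, so only the size is given for Spryd3. With libraries left out in turn the Spryd3 estimate ran from 0.90 to 1.20. With the globin covariate Tns2 changed sign to 0.03 and Csad to 0.13, neither called, and Igfbp6 ran from -0.04 to 0.16 with libraries left out in turn. The cause was not tested. Same-numbered libraries did not deviate together (r = 0.0744, -0.0819 and 0.00324), 1 of 3 Ash1l het libraries correlated best with its own number, and the numbers do not pair them; with a replicate block 3 genes were called and Spryd3 stood at 1.00 (adjusted p = 0.131 by edgeR). Depth limits Soat2, with 0 to 2 counts a library, and Itgb7, with 0 to 10.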
